A study of Saccharomyces cerevisiae with 10 samples.

Results

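The proteasome is the protease that degrades most short-lived, ubiquitin-tagged proteins of a yeast cell. The genes described here encode its subunits, together with RPN4, the transcription factor that drives them. They were all mRNA features of the deposited table whose standard gene name in genome build R64 was PRE1 to PRE10, PUP1 to PUP3, SCL1, RPT1 to RPT6, or RPN with a number, which gave 34 of 7032 features. Of these 34 genes, 14 encode the core particle (7 of the alpha rings and 7 of the beta rings) and 18 encode the regulatory particle (10 of the base, 6 of them ATPases, and 8 of the lid). The other 2 were RPN4 and RPN14, which encodes a chaperone that assembles the base. The 34 genes lie on 13 chromosomes, with lengths from 471 to 2982 bases. All 34 passed the filter on low values, a mean of at least 1 TPM (transcript abundance scaled for gene length and to a fixed library total).

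The study compared naive budding yeast, which do not carry the prion [BIG+], with cells that carry it. This prion is a state inherited through a protein rather than a change in DNA. Both states are labelled wild type (WT) in the haploid laboratory background BY4741, and each was grown from 5 independent colonies in rich medium (YPD) at 30 °C to an OD of 1.0. Total RNA was depleted of rRNA and sequenced, and the authors deposited 1 TPM value per feature and library, with no read depth. The labels give naive libraries the stem YDJ128 and [BIG+] libraries the stem YDJ1952; if these are separate strains, any other difference between them cannot be told apart from the prion. Each state is a population of cells, so a lower level in a library cannot tell less RNA per cell from fewer cells that express the gene.

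The core particle is a barrel of stacked rings, with gates formed by the alpha subunits and the protease sites inside the beta rings. The regulatory particle sits on its ends: the base unfolds substrates with its ring of ATPases, and the lid carries the deubiquitinase that removes ubiquitin chains. Rpn4 binds a short sequence before the subunit genes, the proteasome-associated control element, and is itself rapidly degraded by the proteasome, which makes a feedback loop in which a slow proteasome lets Rpn4 build up.

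The control element was found before most subunit genes, and these sequences are shown because the subunit genes share it. Genes were chosen by name and not by this motif. The motif is, however, already known from proteasome genes, so its high share among them is a description and not independent support. The motif searched was GGTGGCAAA on both strands, in a window of 300 bases (250 before the coding start and 50 after it) read from the RefSeq R64 genome. It was present in 27 of the 34 windows (79.4%), against 72 of 6020 protein-coding genes (1.20%). The 9 motif bases are in capitals, and sequences run 5′ to 3′ on the strand of the gene, so that an element on the opposite strand appears as TTTGCCACC. The first 5 are exact matches: PRE3 and PRE2 encode protease subunits, PRE6 is an alpha gene with an element on the opposite strand, RPT6 has the element nearest to its coding start and PUP3 the farthest.
PRE3 (chrX:435035-435063): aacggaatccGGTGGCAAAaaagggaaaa
PRE2 (chrXVI:732184-732212): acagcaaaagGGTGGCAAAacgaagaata
PRE6 (chrXV:255218-255246): cgaagattctTTTGCCACCggaagggaaa
RPT6 (chrVII:411352-411380): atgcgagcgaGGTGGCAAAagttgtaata
PUP3 (chrV:349511-349539): tggcactgccGGTGGCAAAaaagtgcaaa

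The 5 subunit genes without an exact match were PRE5, PUP1, RPN13, RPN10 and RPN8, and each held the motif with 1 substitution. Positions are counted from 1 at the motif's 5′ end. The substitution was G1A in PRE5, PUP1 and RPN8, and A7G in RPN13 and RPN10. The window of RPN10 held its element on the opposite strand.
PRE5 (chrXIII:901552-901580): cctattatagAGTGGCAAAattaaaaatt
PUP1 (chrXV:631891-631919): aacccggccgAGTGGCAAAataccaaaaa
RPN8 (chrXV:817085-817113): gggatacctcAGTGGCAAAtcgttactca
RPN13 (chrXII:965656-965684): ttattcgcgaGGTGGCGAAagctttgcta
RPN10 (chrVIII:498968-498996): caggcgggttTTCGCCACCggaatttaca

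Allowing 1 mismatch, all 32 subunit genes held the motif, against 454 of 6020 protein-coding genes (7.54%). Neither RPN4 nor RPN14 held it even so. A match describes these letters only and does not show that Rpn4 binds there. The 27 exact matches lay 84 to 183 bases before the coding start with a median of 120, and 19 were on the gene's strand and 8 on the opposite one. The 45 other protein-coding genes with an exact match held it between 33 bases after and 244 bases before the start. Of these, 20 held it between 80 and 190 bases before the start. That band closely encloses the members' own range, so the count does not test a preferred position. By particle, 12 of 14 core genes and 15 of 18 regulatory genes had an exact match. The shorter form GGTGGCAA was found in the same 27 members and in 101 protein-coding genes (1.68%).

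**Figure D1:**
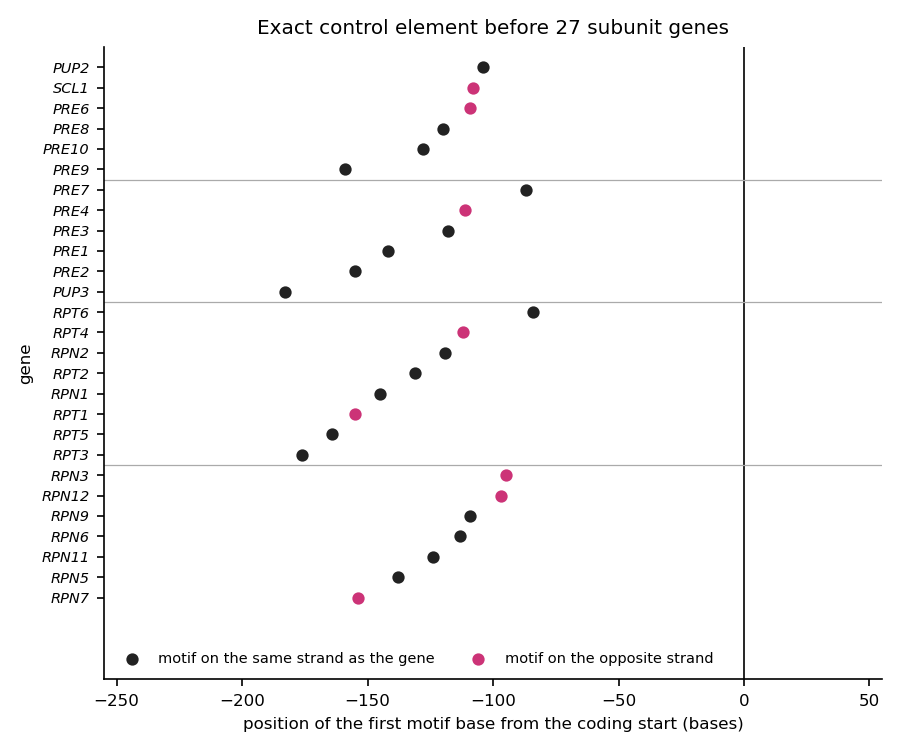
Position of the exact control element (GGTGGCAAA) relative to the coding start, in bases, for the 27 subunit genes that hold it; black points lie on the gene's strand, magenta points on the opposite strand, and grey lines divide alpha, beta, base and lid genes. All 27 points fall between 84 and 183 bases before the start.

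Subunit genes were well expressed, and the core particle as a whole was higher than the regulatory particle in every library. Over all 10 libraries the median level was 53.1 TPM for the 14 core genes and 28.6 TPM for the 18 regulatory genes, against 6.95 TPM for the 5662 tested mRNAs. TPM is a level per length, so levels of different genes can be set side by side as far as that scaling holds. Core genes were shorter, with a median length of 764.5 bases against 1297.5 for regulatory genes. Whether length has a part in the difference was not tested. Core over regulatory particle, as a ratio of geometric means, was 1.76, 2.08, 1.95, 1.87 and 1.73 in naive libraries 1 to 5 and 1.88, 1.93, 1.83, 1.93 and 1.86 in [BIG+] libraries 1 to 5. The ratio was 1.88 ± 0.142 in naive and 1.89 ± 0.0437 in [BIG+] cells (SD, n = 5 each), so the states differed by far less than the spread between libraries. In each of the 10 libraries, 13 of the 14 core genes were above the regulatory median; the exception was PUP1.

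**Figure D2:**
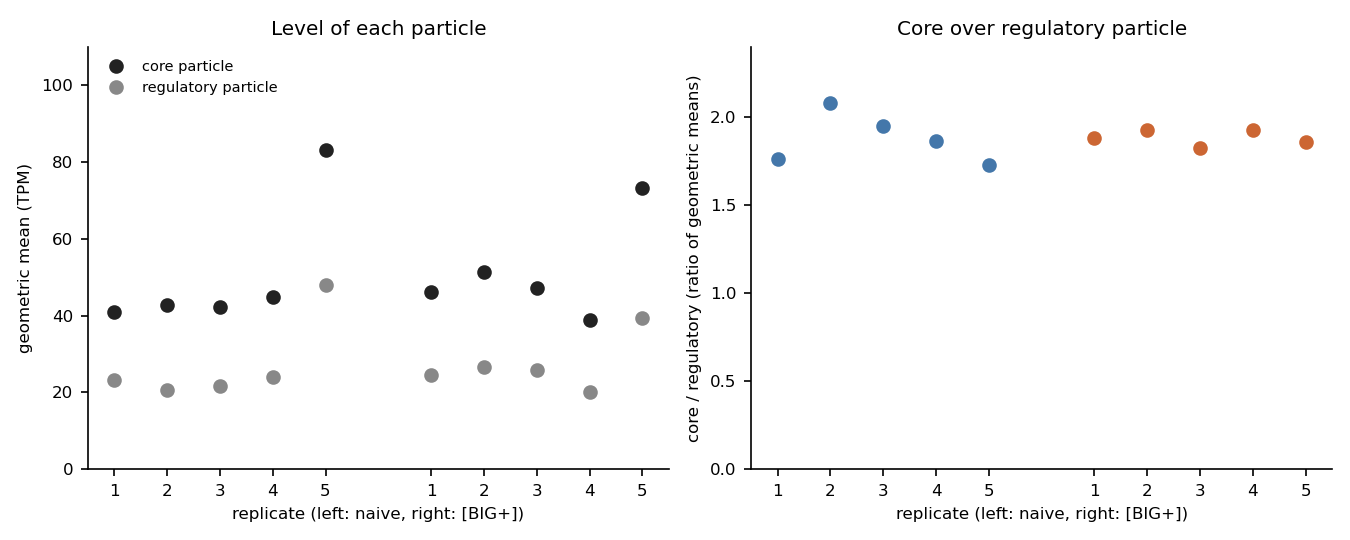
Left, geometric mean level (TPM) of the 14 core genes (black) and the 18 regulatory genes (grey) in each library; right, their ratio, in naive (blue) and [BIG+] (orange) libraries. Core is above regulatory in all 10 libraries, the ratio lies between 1.73 and 2.08, and the replicate 5 libraries have the highest levels of both particles.

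Within the core, levels of the alpha and beta genes were close. The ratio of alpha to beta geometric means was 1.00 ± 0.0730 in naive and 1.05 ± 0.0384 in [BIG+] cells (SD, n = 5 each). Within the regulatory particle, lid over base was 0.785, 0.898, 0.765, 0.784 and 0.738 in naive libraries 1 to 5 and 0.901, 0.888, 0.848, 0.955 and 0.774 in [BIG+] libraries 1 to 5. The ratio was 0.794 ± 0.0612 in naive and 0.873 ± 0.0672 in [BIG+] cells, and the ranges overlapped. The geometric mean of the lid genes was below that of the base genes in all 10 libraries.

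The highest subunit genes by mean over the libraries were PRE3 (75.7 TPM, a beta subunit of the core), PRE6 (75.5 TPM, alpha), PRE8 (67.9 TPM, alpha), PRE10 (67.6 TPM, alpha) and PUP3 (61.8 TPM, beta). RPN2, the large scaffold protein of the base, followed at 55.5 TPM, and its related scaffold RPN1 was at 51.0 TPM. The lowest subunit genes were RPN13, a ubiquitin receptor, at 14.5 TPM and the lid gene RPN7 at 16.5 TPM. RPN11, the deubiquitinase of the lid, was at 25.4 TPM. PRE3 and PRE6, the top pair, differed by less than the spread between libraries of either gene.

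**Figure D3:**
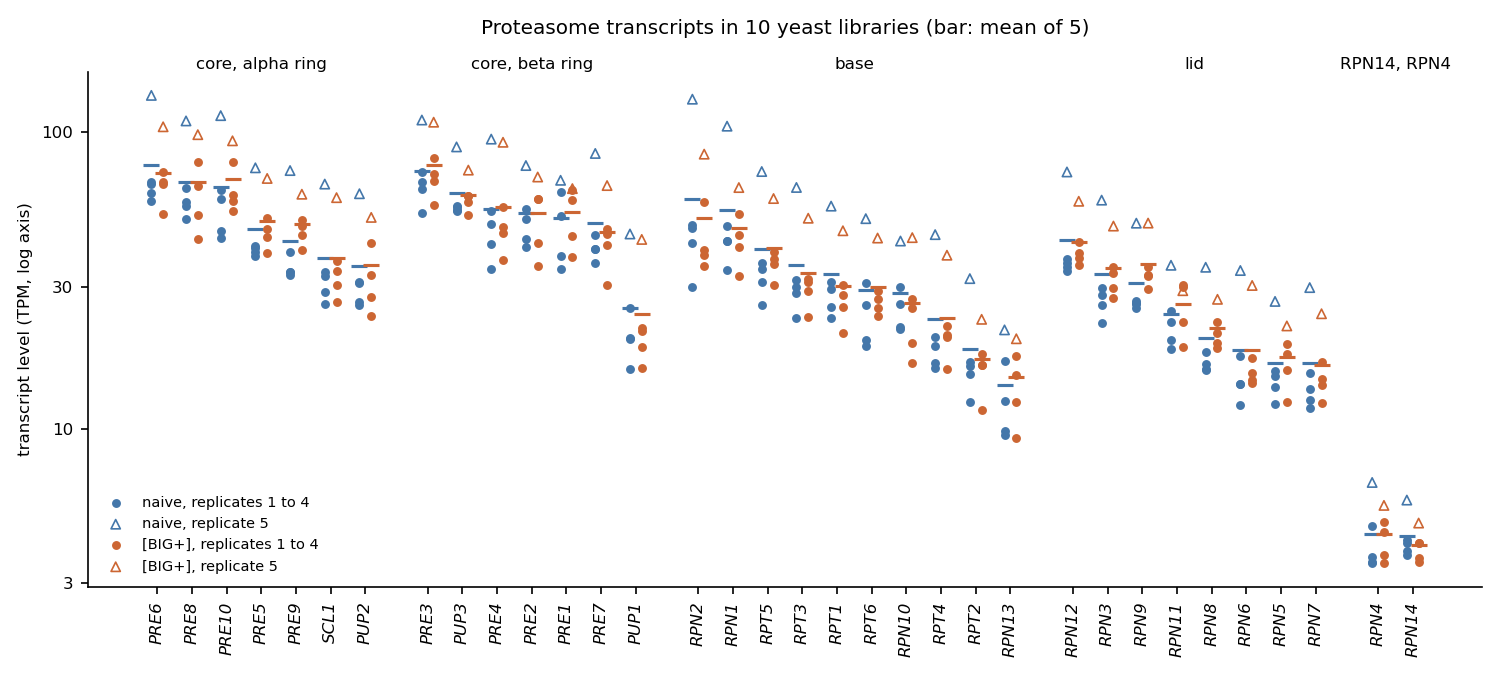
Level (TPM, log axis) of each of the 34 genes in each library, grouped by part of the proteasome and ordered by mean; blue is naive, orange is [BIG+], circles are replicates 1 to 4, open triangles are replicate 5 and bars are means of 5. Levels of subunit genes run from 14.5 to 75.7 TPM by mean, RPN4 and RPN14 lie far lower, and the triangles are the top points of both states for 33 of the 34 genes.

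RPN4 (YDL020C, chromosome IV, bases 415113 to 416708 of R64) was expressed at a low level, and no difference between the states was detected. Its levels were 4.70, 3.55, 3.51, 3.67 and 6.58 TPM in naive libraries 1 to 5 and 4.82, 4.48, 3.73, 3.52 and 5.50 TPM in [BIG+] libraries 1 to 5. Libraries 1 and 5 were the highest of both states, and the states overlapped almost wholly. The means were 4.40 ± 1.31 TPM (naive) against 4.41 ± 0.807 TPM ([BIG+]; SD, n = 5). The log2 fold change of [BIG+] over naive was 0.021 ± 0.18 (SE) and did not pass (limma adjusted p 0.999; exact two-sided permutation p 0.849 over all assignments of the libraries, the smallest possible being 0.00794). Values were tested as log2(TPM + 1), so changes of genes as low as this one are understated. The 95% interval of the fold change ran from 0.776 to 1.33, and from 0.877 to 1.17 with the replicate block, a fit in which same-numbered libraries are paired. Folds of TPM + 1 within these bounds remain possible. The bounds are not a limit of detection, and a change outside them could also have gone uncalled. The sign of the fold change turned when naive replicate 2, 3 or 4 or [BIG+] replicate 1 or 5 was left out, and without pair 2 in the fit with the block.

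No gene of the proteasome passed the threshold for a difference between the states. In limma over 5732 features, at a Benjamini-Hochberg adjusted p under 0.05, the count was 0 of 34 without the block, where 0% of all features passed and the lowest adjusted p of a member was 0.999. At an unadjusted p under 0.05, 0 of the 34 and 68 of the 5662 tested mRNAs passed without the block. With the replicate block the count was also 0, against 0.0349% of all features called higher and 0.576% called lower, and only RPN9 had an unadjusted p under 0.05, at 0.0309 (limma adjusted p 0.395). That is 1 of 34 members, where 611 of the 5662 tested mRNAs had one in the same fit. No member had naive and [BIG+] libraries that did not overlap, which 0.384% of all features had.

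The log2 fold changes of the members ran from -0.13 (RPN10) to 0.25 (PRE9). The median was 0.032 over core genes and 0.049 over regulatory genes, beside -0.057 over all tested mRNAs. Of the 32 subunit genes 21 were higher in [BIG+] by their mean log2 values (65.6%), beside 33.7% of the tested mRNAs, and none of these differences passed the test. Because subunit genes shifted together between libraries, as described below, such counts are not counts of independent observations. Lid genes were higher in 8 of 8 with a median of 0.11, and base genes in 4 of 10 with a median of -0.057; in libraries 1 to 4 alone the base turned, to 8 of 10 with a median of 0.027, and the lid was higher in 8 of 8 with a median of 0.20. The 95% intervals of single genes had a median half-width of 0.54 on the log2 scale without the block and 0.26 with it. Leaving out 1 library or 1 pair moved the core median between -0.11 and 0.22 and the regulatory median between -0.10 and 0.26, with both extremes of each from leaving out a replicate 5 library.

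**Figure D4:**
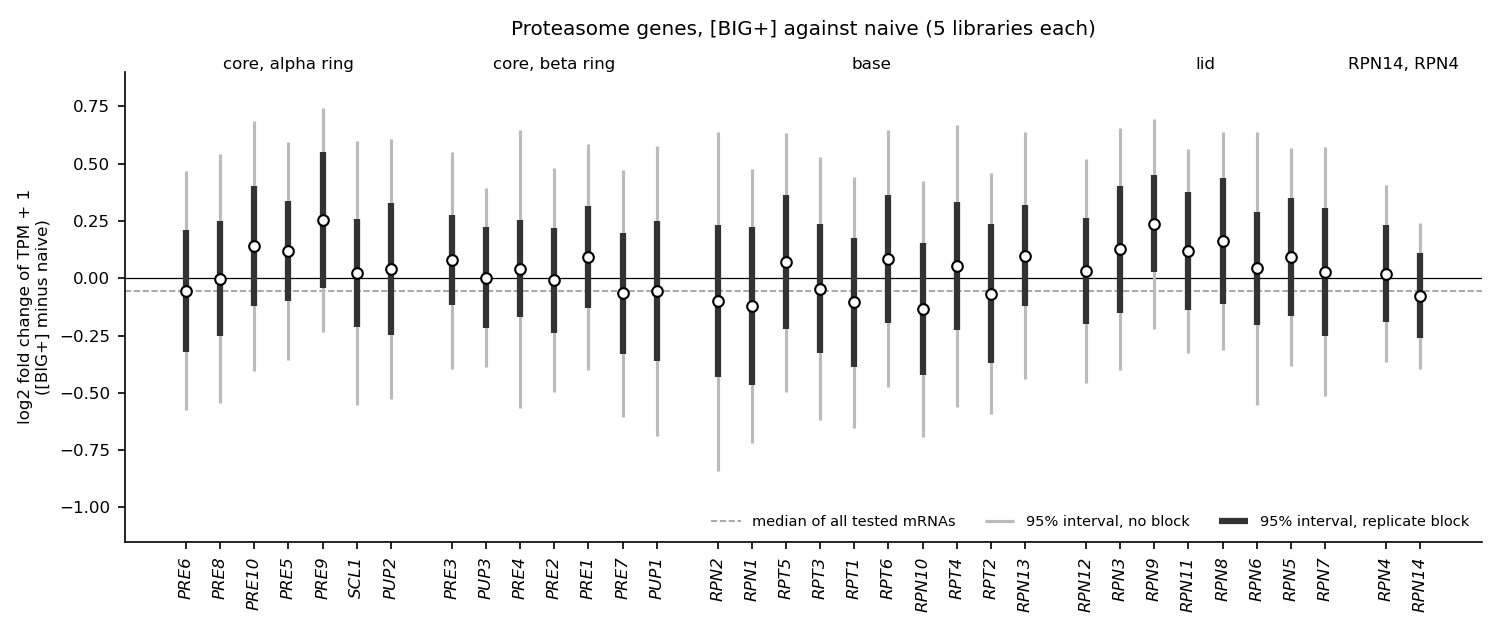
Log2 fold change of TPM + 1, [BIG+] minus naive, for each gene (white points), with its 95% interval in limma without a block (grey) and with the replicate block (black); the dashed line is the median of all tested mRNAs at -0.057. Every grey interval spans 0, and of the black ones only that of RPN9 does not.

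Of the genes that encode the protease sites, none passed. PRE3, which encodes the site that cuts after acidic residues, was at 53.6, 64.2, 73.3, 68.0 and 110.1 TPM in naive libraries 1 to 5 and 57.0, 68.4, 81.7, 72.3 and 108 TPM in [BIG+] libraries 1 to 5. The highest library of each state was replicate 5, and the states overlapped. Its log2 fold change was 0.079 ± 0.22 (SE), with means of 73.8 ± 21.5 TPM (naive) against 77.5 ± 19.3 TPM ([BIG+]; SD, n = 5). The test of PRE3 gave a limma adjusted p 0.999, and 0.763 with the replicate block. PUP1, which encodes the trypsin-like site, was at 20.2, 15.9, 20.1, 25.6 and 45.4 TPM in naive libraries 1 to 5 and 21.9, 21.3, 18.8, 16.1 and 43.5 TPM in [BIG+] libraries 1 to 5. It was the lowest gene of the core in all libraries, and again replicate 5 was highest in both states. [BIG+] differed from naive by a log2 fold change of -0.056 ± 0.29 (SE), with means of 25.4 ± 11.7 TPM (naive) against 24.3 ± 11.0 TPM ([BIG+]; SD, n = 5). The test of PUP1 gave a limma adjusted p 0.999, and 0.897 with the replicate block. PRE2, which encodes the chymotrypsin-like site, was at 55.2, 50.9, 41.0, 43.7 and 77.3 TPM in naive libraries 1 to 5 and 59.6, 59.6, 42.2, 35.4 and 70.7 TPM in [BIG+] libraries 1 to 5. The ranges of the states overlapped widely. Its log2 fold change was -0.0089 ± 0.23 (SE) (limma adjusted p 0.999, and 0.980 with the replicate block). The sign of the PRE2 and PUP1 values turned under median-of-ratios scaling, to 0.058 and 0.0097.

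In the alpha rings the gene with the highest value was PRE9, the alpha subunit that yeast can live without. It was at 33.8, 33.0, 33.8, 39.4 and 74.3 TPM in naive libraries 1 to 5 and 44.9, 48.4, 50.6, 40.1 and 61.8 TPM in [BIG+] libraries 1 to 5. Among libraries 1 to 4 every [BIG+] library was above every naive one, while naive replicate 5 was the highest of all. For PRE9 the log2 fold change was 0.25 ± 0.23 (SE) (limma adjusted p 0.999, and 0.508 with the replicate block), and it was 0.17 without [BIG+] replicate 5 and 0.47 without naive replicate 5. The lowest alpha value was that of PRE6, at 62.2, 58.6, 67.2, 68.0 and 133 TPM in naive libraries 1 to 5 and 67.8, 73.3, 66.7, 53.0 and 104 TPM in [BIG+] libraries 1 to 5. The replicate 5 libraries were far above the rest, which overlapped between the states. Its log2 fold change was -0.054 ± 0.24 (SE) (limma adjusted p 0.999, and 0.883 with the replicate block), and it turned to 0.013 under median-of-ratios scaling.

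In the beta rings the highest value was that of PRE1 and the lowest that of PRE7, both structural subunits with no protease site of their own. PRE1 was at 52.1, 62.8, 34.6, 38.2 and 68.9 TPM in naive libraries 1 to 5 and 59.0, 64.0, 44.7, 37.9 and 64.6 TPM in [BIG+] libraries 1 to 5. Replicates 1, 2 and 5 were high and replicates 3 and 4 low in both states. The resulting log2 fold change was 0.093 ± 0.23 (SE) (limma adjusted p 0.999, and 0.747 with the replicate block). PRE7 was at 40.5, 45.0, 36.3, 40.5 and 84.9 TPM in naive libraries 1 to 5 and 45.5, 47.3, 41.6, 30.4 and 66.1 TPM in [BIG+] libraries 1 to 5, with naive replicate 5 highest and [BIG+] replicate 4 lowest. Its log2 fold change was -0.066 ± 0.25 (SE) (limma adjusted p 0.999, and 0.860 with the replicate block), and it turned to 0.00091 under median-of-ratios scaling.

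In the base the highest and lowest values belonged to ubiquitin receptors. RPN13 was at 12.4, 16.9, 9.51, 9.83 and 21.5 TPM in naive libraries 1 to 5 and 15.2, 17.6, 12.3, 9.27 and 20.1 TPM in [BIG+] libraries 1 to 5. Replicates 3 and 4 were low in both states. Its log2 fold change was 0.10 ± 0.25 (SE) (limma adjusted p 0.999, and 0.724 with the replicate block). RPN10, which sits between base and lid, was at 30.0, 21.7, 22.0, 26.2 and 43.0 TPM in naive libraries 1 to 5 and 25.4, 27.4, 19.5, 16.6 and 44.1 TPM in [BIG+] libraries 1 to 5. Libraries 3 and 4 of [BIG+] were the lowest, and the replicate 5 libraries the highest. For RPN10 the log2 fold change was -0.13 ± 0.26 (SE), the lowest of all members (limma adjusted p 0.999, and 0.713 with the replicate block).

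In the lid the highest value was that of RPN9, a scaffold subunit, and the lowest that of RPN7. RPN9 was at 26.6, 26.9, 25.5, 26.3 and 49.4 TPM in naive libraries 1 to 5 and 32.8, 35.1, 32.9, 29.7 and 49.4 TPM in [BIG+] libraries 1 to 5. Each [BIG+] library was above the naive library of the same number, in pair 5 by very little. The log2 fold change of RPN9 was 0.24 ± 0.21 (SE) (limma adjusted p 0.999, and 0.395 with the replicate block). It was 0.12 without [BIG+] replicate 5 and 0.41 without naive replicate 5. RPN7 was at 13.6, 12.5, 11.7, 15.4 and 29.9 TPM in naive libraries 1 to 5 and 14.0, 14.7, 16.8, 12.2 and 24.4 TPM in [BIG+] libraries 1 to 5. Naive replicate 5 was the highest and the states overlapped. On the log2 scale [BIG+] differed by 0.028 ± 0.25 (SE) (limma adjusted p 0.999, and 0.942 with the replicate block).

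RPN14, the assembly chaperone of the base, was near the level of RPN4. It was at 4.22, 4.11, 3.87, 3.74 and 5.73 TPM in naive libraries 1 to 5 and 4.11, 4.11, 3.53, 3.65 and 4.80 TPM in [BIG+] libraries 1 to 5. It was lower in [BIG+] in 5 of 5 pairs, by small amounts. The log2 fold change of RPN14 was -0.076 ± 0.15 (SE) (limma adjusted p 0.999, and 0.757 with the replicate block), and it turned to 0.0023 under quantile normalization.

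Subunit genes moved together from culture to culture. Their median spread within a state was 0.44 on the log2 scale (SD), from 0.25 for PUP3 to 0.66 for RPN2, beside 0.30 for all tested mRNAs. After the mean of the subunit genes in each library was subtracted, the median spread of the subunit genes was 0.16, from 0.054 for PRE6 to 0.34 for PRE1, while that of all tested mRNAs was 0.32. That mean is made from the subunit genes themselves, so part of their drop follows from the subtraction. The spread includes the replicate 5 libraries, described next. The other genes with a large remaining spread were RPN2 at 0.33 and RPN13 at 0.30.

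**Figure D5:**
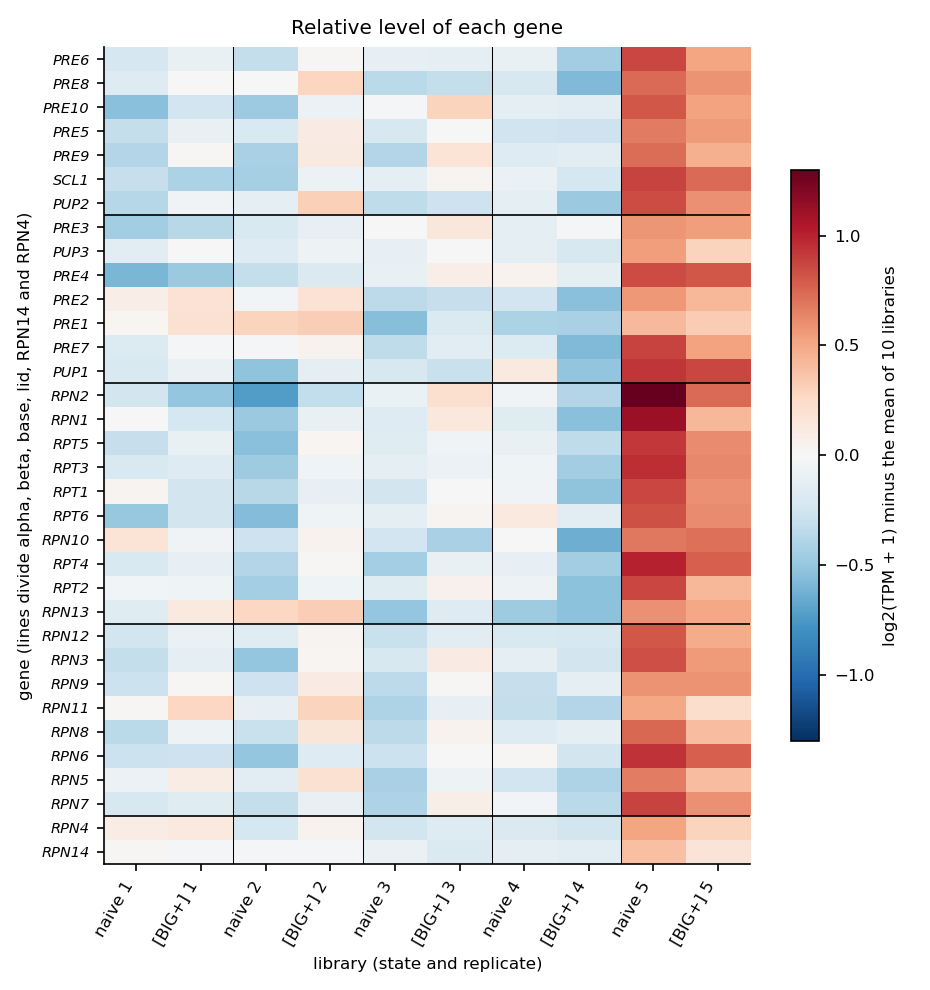
Level of each gene relative to its own mean over the 10 libraries, as log2(TPM + 1), with red above and blue below; columns are libraries, with the naive and [BIG+] libraries of 1 replicate number side by side. The replicate 5 columns are red for all 34 genes.

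Subunit genes differed more between cultures of the same state than between the states. The replicate 5 library was the highest of its state in both states for 33 of 34 members, all but RPN11, a pattern that 50.5% of all features had. Over the median of libraries 1 to 4, replicate 5 was 2.09-fold in naive and 1.55-fold in [BIG+] cells as the median of the 32 subunit genes, and 1.45-fold and 1.28-fold as the median of all tested mRNAs. The fold ran from 1.53 (PRE1) to 2.88 (RPN2) in naive cells and from 1.10 (RPN11) to 2.17 (PUP1) in [BIG+] cells. For RPN4 it was 1.82 and 1.34, and for RPN14 1.44 and 1.24. The rise was not particular to subunit genes. In the related lists described below, the median folds (naive, then [BIG+]) were 2.12 and 1.63 for substrate delivery, as high as for the subunits. They were 1.76 and 1.43 for other subunits and associated proteins, and 1.46 and 1.25 for assembly factors. Regulators of RPN4 were at 1.55 and 1.48, and genes of ubiquitin and its conjugation at 1.37 and 1.14.

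The replicate 5 libraries also held the largest share of nuclear mRNA, 52.8% and 53.4% of all TPM, where the other 8 held 42.7% to 47.5%. Scaled to nuclear mRNA, the subunit median was 1.82-fold in naive and 1.33-fold in [BIG+] cells, beside 1.26-fold and 1.09-fold for all tested mRNAs. Under median-of-ratios scaling it was 1.42-fold and 1.23-fold, beside 1.00-fold for all tested mRNAs in both states. That scaling centres each library on the median ratio of the tested features, so the 1.00 follows from the method. The part that the RNA make-up of these libraries has in the difference was not tested further. Subunits with the exact control element and those without it had similar folds, 2.10 and 1.94 in naive and 1.55 and 1.53 in [BIG+] cells (27 and 5 genes). The 42 other tested genes with the element were at 1.76-fold and 1.32-fold.

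Replicates 3 and 4 differed from replicates 1 and 2 in single subunits rather than in the whole set. In both states PRE1, PRE2, PRE8, RPN13, RPN11 and RPN14 were lower in all libraries numbered 3 and 4 than in any numbered 1 and 2, which is 6 of 34 members beside 29.5% of all features. PRE4, a beta subunit, was higher in the same sense, 1 of 34 beside 9.39%. Both shares of members were below that of all features.

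Pairs of same-numbered libraries went opposite ways. [BIG+] was higher in 26, 32 and 29 of the 32 subunit genes in pairs 1, 2 and 3, with medians of 0.16, 0.35 and 0.21 on the log2 scale, and in 4 and 2 of them in pairs 4 and 5, with medians of -0.24 and -0.26. All tested mRNAs moved the same way to a smaller extent in pairs 2 to 5, with medians of 0.073, 0.048, -0.18 and -0.17, and had a median of -0.050 in pair 1. The core and regulatory medians had the same sign in all 5 pairs. RPN4 differed by 0.030, 0.27, 0.071, -0.046 and -0.22 in pairs 1 to 5, the same signs as the subunit medians.

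Since the replicate 5 libraries stood apart, the comparison was repeated without them, a choice made after the data were seen. In libraries 1 to 4 alone, without the block, 0 of 34 members passed (limma; 0% of all features, lowest adjusted p of a member 0.860), and 3 of 32 subunit genes had an unadjusted p under 0.05, beside 176 of the 5662 tested mRNAs. By their mean log2 values 29 of 32 subunit genes were higher in [BIG+], with a median log2 fold change of 0.11, beside 42.0% of the tested mRNAs and a median of -0.029. The subunit genes shifted together from library to library, so this is not a count of independent observations. The core median was 0.067 and the regulatory median 0.12. In PRE9, RPN8 and RPN9 every [BIG+] library was above every naive one, 3 of 34 members beside 1.1% of all features, and 0 members were lower in that sense beside 1.8%. Their log2 fold changes were 0.38 ± 0.12, 0.29 ± 0.11 and 0.30 ± 0.10 (SE, n = 4 each), with limma adjusted p of 0.860, 1 and 1. RPN8, the lid partner of the deubiquitinase, was named after its values were seen. In pair 4 the 32 subunit genes still went mostly the other way.

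The other genes of the pathway showed no called change. Of 44 genes in 5 lists, 0 passed without or with the replicate block in limma (lowest adjusted p 0.999 and 0.480). In [BIG+] 14 of them were higher and 30 lower, with a median of -0.060. The share higher was 31.8%, close to the 33.7% of all tested mRNAs, whose median was -0.057. Proteasome assembly factors were higher in 5 of 8 with a median of 0.038. Their most abundant gene was UMP1, which encodes the maturation factor of the core, with means of 191 ± 33.0 TPM (naive) against 198 ± 20.6 TPM ([BIG+]; SD, n = 5) and a log2 fold change of 0.066 ± 0.17 (SE). Other subunits and associated proteins were higher in 3 of 9 with a median of -0.049; SEM1, a small lid subunit whose name the rule does not cover, had means of 34.0 ± 10.5 TPM (naive) against 36.2 ± 7.58 TPM ([BIG+]; SD, n = 5) and a log2 fold change of 0.11 ± 0.21 (SE). That of SEM1 was 0.0046 without [BIG+] replicate 5, 0.012 without naive replicate 1 and 0.27 without naive replicate 5.

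Genes of substrate delivery were higher in 2 of 8 with a median of -0.052, and CDC48, the ATPase that extracts ubiquitin-tagged proteins, had means of 136 ± 49.0 TPM (naive) against 129 ± 33.5 TPM ([BIG+]; SD, n = 5) with a log2 fold change of -0.043 ± 0.24 (SE). Genes of ubiquitin and its conjugation were higher in 4 of 13 with a median of -0.057. RPS31, a fusion of ubiquitin with a ribosomal protein, had a log2 fold change of 0.12 ± 0.31 (SE), with means of 3314 ± 1655 TPM (naive) against 3373 ± 1079 TPM ([BIG+]; SD, n = 5); its ubiquitin part is near-identical to other genes, so its reads may be split among them. The regulators of RPN4 were higher in 0 of 6 with a median of -0.12. YAP1, an oxidative stress factor that acts on RPN4, had means of 6.39 ± 2.22 TPM (naive) against 5.61 ± 1.68 TPM ([BIG+]; SD, n = 5) with a log2 fold change of -0.15 ± 0.22 (SE). An exact control element was found in 5 of the 44 windows (11.4%), those of ECM29, CDC48, UBI4, UBA1 and YAP1.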

How the data were processed

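RNA came from 10 cultures (5 per state), each from its own colony per the labels' protocols, and was depleted of rRNA with RiboZero. The authors deposited TPM values, normalized within each library (totals of 999963 to 999982 TPM). Bowtie2, HTSeq and genome build R64 are named in the submitters' processing notes; no version or strand setting is given in the sources used here. TPM keeps no read depth, and the number of reads is unknown. The table's 4 emptied lines were left out. Of 6596 mRNA features, 5914 matched an R64 locus tag. No member overlaps another gene annotated in R64.

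Features with a mean of at least 1 TPM (5732) were log-transformed, log2(TPM + 1), and fitted by state in R 4.3.3 using limma 3.58.1 (lmFit, eBayes with trend, two-sided), Benjamini-Hochberg adjusted over all, threshold 0.05. RPN4 also had an exact permutation test. The steps were run on simulated data in which replicate effects were drawn separately for each gene. In the real libraries many genes shifted together, so the simulation does not cover that feature. Alternatives were other pseudocounts, filters and scalings, blocks, and leaving out libraries or pairs. Same-numbered libraries' deviations from their state means correlated at 0.743, 0.569, 0.531, 0.355 and 0.475, each above 0.1. The main fit was unpaired. On the basis of these correlations, from the same data, the fit with the replicate block treated libraries as paired by number, although the labels do not say so. Replicates 2 and 4 correlated more with another number (0.645 and 0.460).

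Members and lists were chosen with earlier results of these data known. Genes named with a fold change were RPN4, RPN14, the protease-site genes, the highest and lowest member of each ring, base and lid, and the most abundant gene of each list. Sequences came from the RefSeq R64 genome, where gene starts are coding starts; Python 3.11.15, pandas 2.3.3 and matplotlib 3.10.9 were used for these and the figures.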

Additional observations from a re-analysis of the deposited data

Results flagged for a closer look

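In 29 of 68 groups (34 genes in 2 states of 5 libraries each), the highest library stood apart from the other 4 by more than 0.71 of the group's whole range. For normal values, chance alone sets the highest or the lowest library this far apart in about 1 of 20 groups. Whether TPM values follow that distribution was not tested, and the genes are not independent of each other. In all 29 the library was replicate 5: 24 in naive and 5 in [BIG+] cells. The alpha genes were at 75.9 (PRE5), 133 (PRE6), 109 (PRE8), 74.3 (PRE9), 114 (PRE10), 62.1 (PUP2) and 66.9 TPM (SCL1) in naive replicate 5, and the beta genes at 84.9 (PRE7) and 89.3 TPM (PUP3). The base genes were at 56.4 (RPT1), 32.1 (RPT2), 65.2 (RPT3), 45.2 (RPT4), 73.8 (RPT5), 105 (RPN1) and 129 TPM (RPN2). The lid genes were at 59.0 (RPN3), 26.9 (RPN5), 34.2 (RPN6), 29.9 (RPN7), 35.0 (RPN8), 49.4 (RPN9) and 73.5 TPM (RPN12), and RPN14 was at 5.73 TPM. In [BIG+] replicate 5, PUP1 was at 43.5, RPT4 at 38.5, RPT6 at 44.0, RPN6 at 30.4 and RPN9 at 49.4 TPM.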

How the results depend on the processing

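The count of 0 members called held under all 25 alternatives, among them the replicate block (lowest adjusted p of a member 0.395 in limma); at a mean of at least 10 TPM, RPN4 and RPN14 were not tested. The paired analysis with the replicate block changed no call of a member, and moved the calls over all features from 0 to 2 higher and 33 lower (3 and 40 with a block by sets of replicates). No scaling moved the median of all features by over 0.1 on the log2 scale. Signs that turned under another scaling or in libraries 1 to 4 alone did so around 0. Leaving out 1 library turned some by more, as for PUP1, from -0.056 to 0.17 without naive replicate 5. Under median-of-ratios scaling the log2 fold change was 0.025 for CDC48, 0.058 for PRE2, 0.013 for PRE6, 0.00091 for PRE7 and 0.0097 for PUP1. Under quantile normalization it was 0.013 for PRE2 and 0.0023 for RPN14. In libraries 1 to 4 without the block, added after the data were seen, it was 0.013 for CDC48, 0.021 for PRE2, 0.019 for PRE6 and 0.0061 for PRE7; the cause was not tested. Leaving out 1 library or pair moved the value from -0.049 to 0.15 for RPN4, -0.18 to 0.15 for CDC48, -0.034 to 0.21 for PRE1, -0.12 to 0.13 for PRE2, -0.048 to 0.23 for PRE3, -0.19 to 0.16 for PRE6, -0.20 to 0.14 for PRE7 and -0.28 to 0.17 for PUP1. It ran from -0.33 to 0.020 for RPN10, -0.014 to 0.26 for RPN13, -0.13 to 0.011 for RPN14, -0.12 to 0.25 for RPN7, -0.085 to 0.31 for RPS31, -0.012 to 0.19 for UMP1 and -0.29 to 0.0085 for YAP1. Without a change of sign it ran from 0.17 to 0.47 for PRE9, 0.12 to 0.41 for RPN9 and 0.0046 to 0.27 for SEM1. The fold of replicate 5 over the other libraries moved from 2.09 to 1.42 (median-of-ratios) and 1.82 (nuclear mRNA) in naive and from 1.55 to 1.23 and 1.33 in [BIG+] cells, both alternatives added after the data were seen. Depth is unknown, so precision rests on the 5 libraries of each state.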
